A study of Mus musculus with 2 samples.

Results

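Immediate early genes were followed in single cells of gonadal white adipose tissue (gWAT). The 10 genes were Fos, Fosb, Jun, Junb, Jund, Egr1, Ier2, Atf3, Nr4a1 and Zfp36, out of 28692 genes counted in each library. They were chosen by measured values, namely their level in each cell class of each library and the contrast between the knockout and the control library. Their levels and ratios are therefore given as a description, and no test rests on them.

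Immediate early genes are transcribed within minutes of a stimulus without new protein synthesis, because the factors on their promoters are already present and are switched on by kinases. Fos and Jun family proteins pair into the transcription factor AP-1, Egr1 and Nr4a1 encode DNA-binding factors of their own, and Zfp36 encodes tristetraprolin, which shortens the life of cytokine mRNAs. Digestion of tissue with warm enzymes is known to switch on the same genes, so that in isolated cells a level set in the animal and one set during digestion cannot be told apart.

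The cells were the stromal vascular fraction (SVF), the non-adipocyte cells left after collagenase and Dispase digestion of gWAT. There was 1 library of control mice and 1 of Adipo-Pgam1 KO mice, all male, on the C57BL/6 strain and 13 weeks old. Per the study's methods the KO mice carried floxed Pgam1 alleles and Adiponectin-Cre, and the controls were Cre-negative littermates, which the labels call wildtype. The adiponectin promoter drives Cre in adipocytes, and the number of mice behind each library was not given in the sources used here. With 1 library per genotype no difference has a replicate check, and no p-value is given. Levels are unique molecular identifier (UMI) counts summed over the cells of a class and expressed per 1000000 UMIs of those cells (CPM). All intervals are 95% intervals (exact Poisson for a level, exact binomial for a share or a ratio) and cover counting error only.

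Adipocytes were nearly absent, as Adipoq was at 0.756 CPM in the control and 0.841 CPM in the KO library. Pgam1, the targeted glycolytic enzyme, was at 109.6 CPM in the control and 116 CPM in the KO library. The log2 ratio was 0.08 (-0.02 to 0.18) over all kept cells and -0.05 (-0.23 to 0.14) in fibroblast-like cells. Its deletion could thus not be checked in these sums. The paper reports markedly lower Pgam1 in KO cells of a fibroblast cluster rich in adipocyte markers, which was not separated here. Of 8522 control and 2730 KO cell barcodes, 3616 and 937 were kept. Kept barcodes had 500 or more genes, a mitochondrial UMI share no higher than 10% and no call as a doublet. The kept cells had a median of 6898 UMIs in the control and 7494 UMIs in the KO library, and a median mitochondrial share of 5.01% and 5.05%. The libraries shared 9 cell barcodes, and 0 of these were kept in both. Clustering without the 10 genes gave 24 clusters, of which 18 carried enough markers to be named, in 12 classes. Depth differed within classes: fibroblast-like cells had a median of 12309 UMIs in the control and 17882 UMIs in the KO library, and monocyte-like cells 6225.5 and 12990.5 UMIs. The part of this depth gap in the ratios below was not tested, other than by the splits by depth that are given. The summed level of 8 fibroblast markers in the 6 immune classes compared was 270 to 620 CPM in the control library. In the KO library it was 111 to 251 CPM, and lower in each of these classes. Dcn was the largest part of the sum. Single markers did not all follow: 2 of 8 were higher in the KO library in macrophage-like, dendritic cell-like and NK cell-like cells, and 1 in B cell-like cells.

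Promoter sequence is shown for 4 of the genes, because Fos and Nr4a1 passed 2-fold in the comparison of fibroblast-like cells while Jun and Junb did not. The 250 bases before the RefSeq start site are printed 5′ to 3′ on the gene's strand (GRCm38.p6), with every letter run that matched a searched motif on either strand in capitals. The Fos window lies at chr12:85473640-85473889 (+ strand), Jun at chr4:95052223-95052472 (- strand), Junb at chr8:84978749-84978998 (- strand) and Nr4a1 at chr15:101266596-101266845 (+ strand). Each window held 0 annotated exons.
Fos: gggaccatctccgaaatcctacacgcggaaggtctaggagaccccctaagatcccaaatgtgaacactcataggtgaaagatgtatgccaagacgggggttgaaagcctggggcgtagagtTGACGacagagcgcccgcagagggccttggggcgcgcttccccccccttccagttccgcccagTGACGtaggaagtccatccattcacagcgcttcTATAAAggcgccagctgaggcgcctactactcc
Jun: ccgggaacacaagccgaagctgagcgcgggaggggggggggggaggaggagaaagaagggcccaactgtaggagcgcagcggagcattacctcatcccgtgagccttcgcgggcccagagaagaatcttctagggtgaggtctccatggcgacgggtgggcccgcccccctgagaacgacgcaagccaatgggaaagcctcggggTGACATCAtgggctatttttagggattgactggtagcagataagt
Junb: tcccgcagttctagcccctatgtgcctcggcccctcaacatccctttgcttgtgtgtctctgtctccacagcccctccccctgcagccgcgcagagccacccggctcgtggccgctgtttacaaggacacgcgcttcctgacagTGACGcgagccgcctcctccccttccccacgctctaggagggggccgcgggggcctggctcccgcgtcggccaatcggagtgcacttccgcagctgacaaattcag
Nr4a1: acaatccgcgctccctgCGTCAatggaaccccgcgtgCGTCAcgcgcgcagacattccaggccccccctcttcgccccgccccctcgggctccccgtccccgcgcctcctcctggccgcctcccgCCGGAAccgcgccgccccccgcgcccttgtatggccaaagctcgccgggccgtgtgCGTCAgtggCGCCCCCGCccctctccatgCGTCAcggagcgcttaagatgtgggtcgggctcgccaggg

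RefSeq promoter sequences matched 8 of the 10 genes, all but Egr1 and Ier2, and the search ran over both strands. Sites beyond these 250 bases were not searched. The Fosb, Atf3 and Zfp36 windows overlapped 5, 1 and 2 annotated exons of the same gene, counted over its transcripts. The Jund start site used (chr8:70697739) lay before the GENCODE start of the gene (70698949), so its window does not adjoin that start. The letters TGACG, the core of the cyclic AMP response element (CRE) that CREB binds, were in 5 of the 8 windows (Fos, Fosb, Junb, Atf3 and Nr4a1), against 17.8% of all 32851 promoters. In the Fos window they began at positions -129 and -66 from the start site, and in the Nr4a1 window they occurred at -233, -213, -69 and -40. The whole element TGACGTCA, which contains TGACG, was in 0 of the 8 windows and in 1.55% of all promoters. TGACNTCA, which also takes in the whole element, was found in Jun at -45 and in 7.49% of promoters. The AP-1 letters TGANTCA were in 0 of the 8 windows and in 6.75% of promoters. The TATA letters TATAAA were found in Fos alone at -33, and in 12.4% of promoters. GCGGGGGCG, the letters bound by EGR proteins, was in 3 windows (Fosb, Nr4a1 and Zfp36) and in 2.57% of promoters. The ETS core CCGGAA was in 2 windows (Nr4a1 and Zfp36) and in 12.0% of promoters, and the CArG box, the site of serum response factor, was in 1 window (Zfp36) and in 1.47% of promoters. The 4 genes past 2-fold higher in KO fibroblast-like cells (Fos, Fosb, Atf3 and Nr4a1) were all among the 5 with TGACG, as was Junb, which was not past it. This describes 8 windows of chosen genes, sorted by the contrast that chose them, and no test was made of it. Egr1 and Ier2, also not past 2-fold in fibroblast-like cells, had no window to search.

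Summed over the 10 genes, early gene transcripts were 4458 CPM of the kept control cells (4435 to 4482) and 6310 CPM of the kept KO cells (6259 to 6360). They made up 0.446% of the kept control UMIs and 0.631% of the kept KO UMIs. Each of the 10 genes was higher in the KO library over all kept cells, with log2 ratios from 0.12 for Egr1 to 0.76 for Fosb. This pools classes whose shares of cells differed: macrophage-like cells were 17.9% of control and 10.1% of KO cells, T cell-like cells 6.86% and 12.4%, and the unnamed cluster with the highest sum 5.81% and 9.61%. Of the 10 genes 0 passed 2-fold upward and 0 passed it downward, where 2.48% and 2.02% of the 13604 genes tested did. A gene counted as tested in a set of cells when it had at least 50 UMIs over both libraries there.

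By class, the sum in control cells was highest in monocyte-like cells (6712 CPM), followed by dendritic cell-like (5739 CPM), macrophage-like (5498 CPM) and endothelial-like cells (4568 CPM), with intervals that did not overlap. Pericyte and smooth muscle-like cells (3935 CPM) and fibroblast-like cells (3925 CPM) came next and could not be told apart by their intervals. The lymphocytes were lowest, with 2733 CPM in B cell-like, 2456 CPM in NK cell-like and 2437 CPM in T cell-like cells, the last of which overlapped. The highest control class was 2.75 times the lowest. In the KO library the order differed: pericyte and smooth muscle-like cells were highest at 8327 CPM, ahead of monocyte-like (7593 CPM), macrophage-like (6770 CPM) and fibroblast-like cells (6271 CPM). T cell-like cells were again lowest at 2512 CPM, and the highest class was 3.31 times the lowest.

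**Figure D1:**
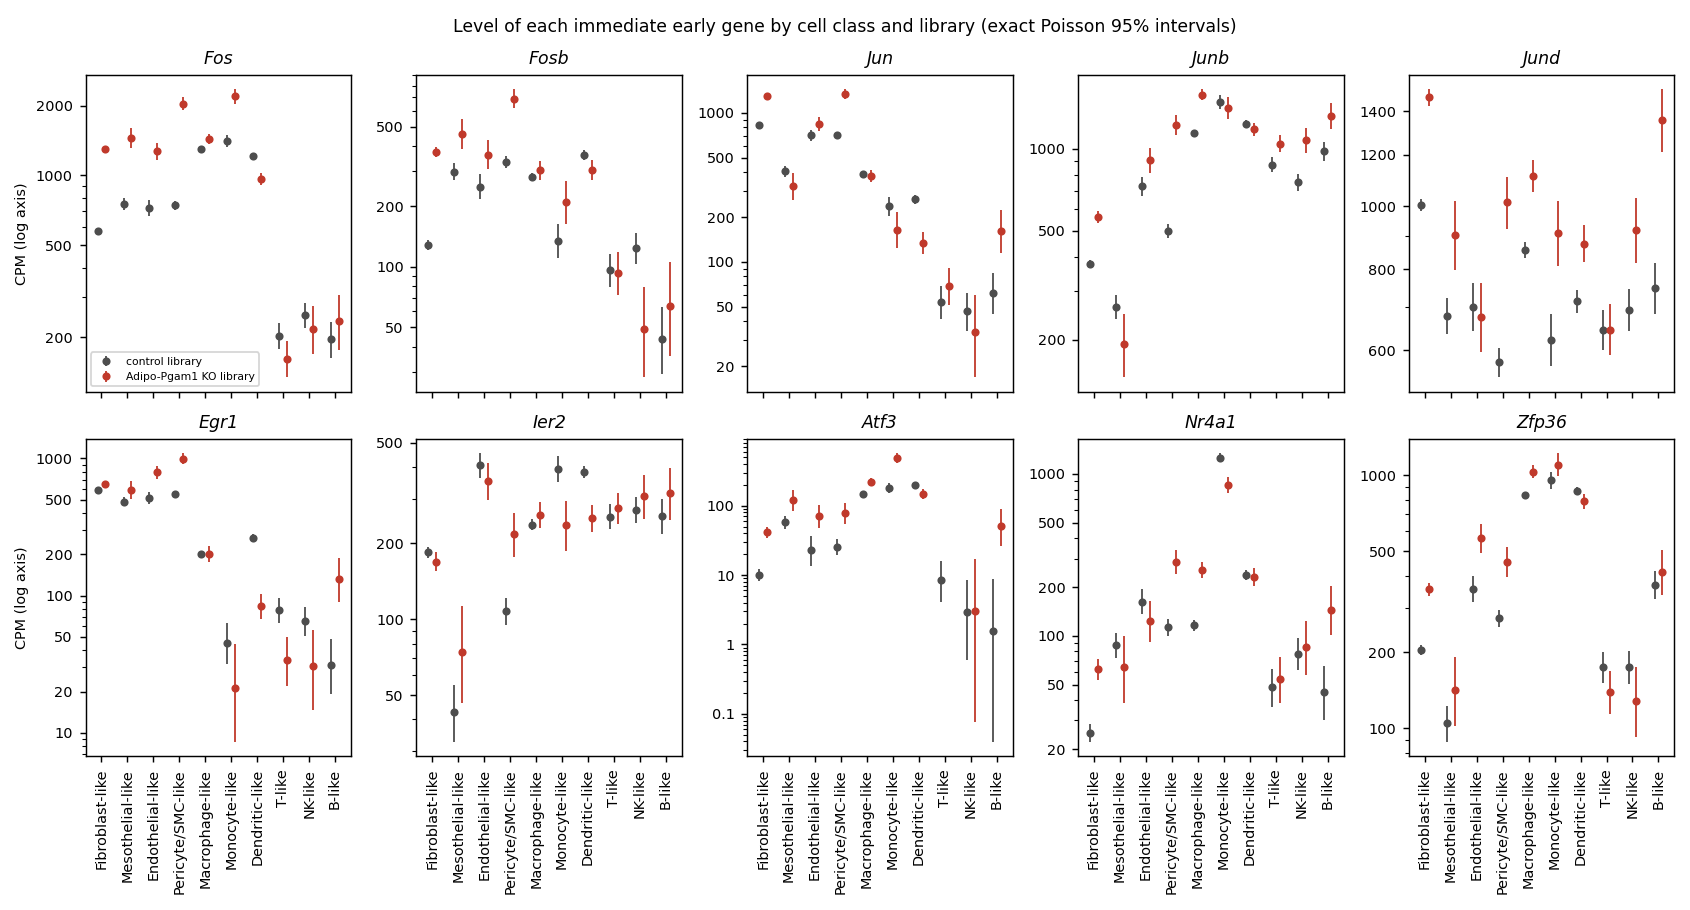
Level of each gene in CPM (log axis) by cell class in the control and the KO library, with 95% Poisson intervals of counting error. Jund sits in a narrow band across classes, while Jun, Egr1, Atf3 and Nr4a1 spread over more than an order of magnitude; Atf3 in T cell-like KO cells is at 0 UMIs and is not drawn.

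The log2 ratio of KO to control for the sum was above 0 in 9 of the 10 classes with at least 20 cells in both libraries. It was 1.08 (1.03 to 1.14) in pericyte and smooth muscle-like cells, 0.68 (0.65 to 0.70) in fibroblast-like, 0.62 (0.50 to 0.73) in B cell-like, 0.45 (0.36 to 0.54) in mesothelial-like and 0.38 (0.31 to 0.46) in endothelial-like cells. Macrophage-like cells had 0.30 (0.26 to 0.34), NK cell-like 0.21 (0.10 to 0.32), monocyte-like 0.18 (0.11 to 0.25) and T cell-like cells 0.04 (-0.04 to 0.13). Dendritic cell-like cells as a whole were the exception, with a log2 ratio of -0.21 (-0.26 to -0.17). The median over all tested genes lay between -0.11 and -0.02 in these classes. The T cell-like value changed sign under other settings (-0.69 to 0.19). Thinning each cell to 2000 UMIs took the endothelial-like ratio to 0.01, wider cell limits (200 genes and 20% mitochondrial UMIs) took the pericyte and smooth muscle-like ratio to 0.36 and the dendritic cell-like ratio to -0.04, and letting the early genes into the clustering took the macrophage-like ratio to 0.68. The 2 libraries thus differed in the size of the gap from class to class, and in dendritic cell-like cells as a whole in its sign. The dendritic cell-like clusters did not share this sign, and their summed ratios lay on either side of 0. Median shares per cell of UMIs from the 10 genes were 0.616% (control) and 0.469% (KO) in cluster 7. For cluster 18, with 72 control and 26 KO cells, they were 0.399% and 0.465%.

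**Figure D2:**
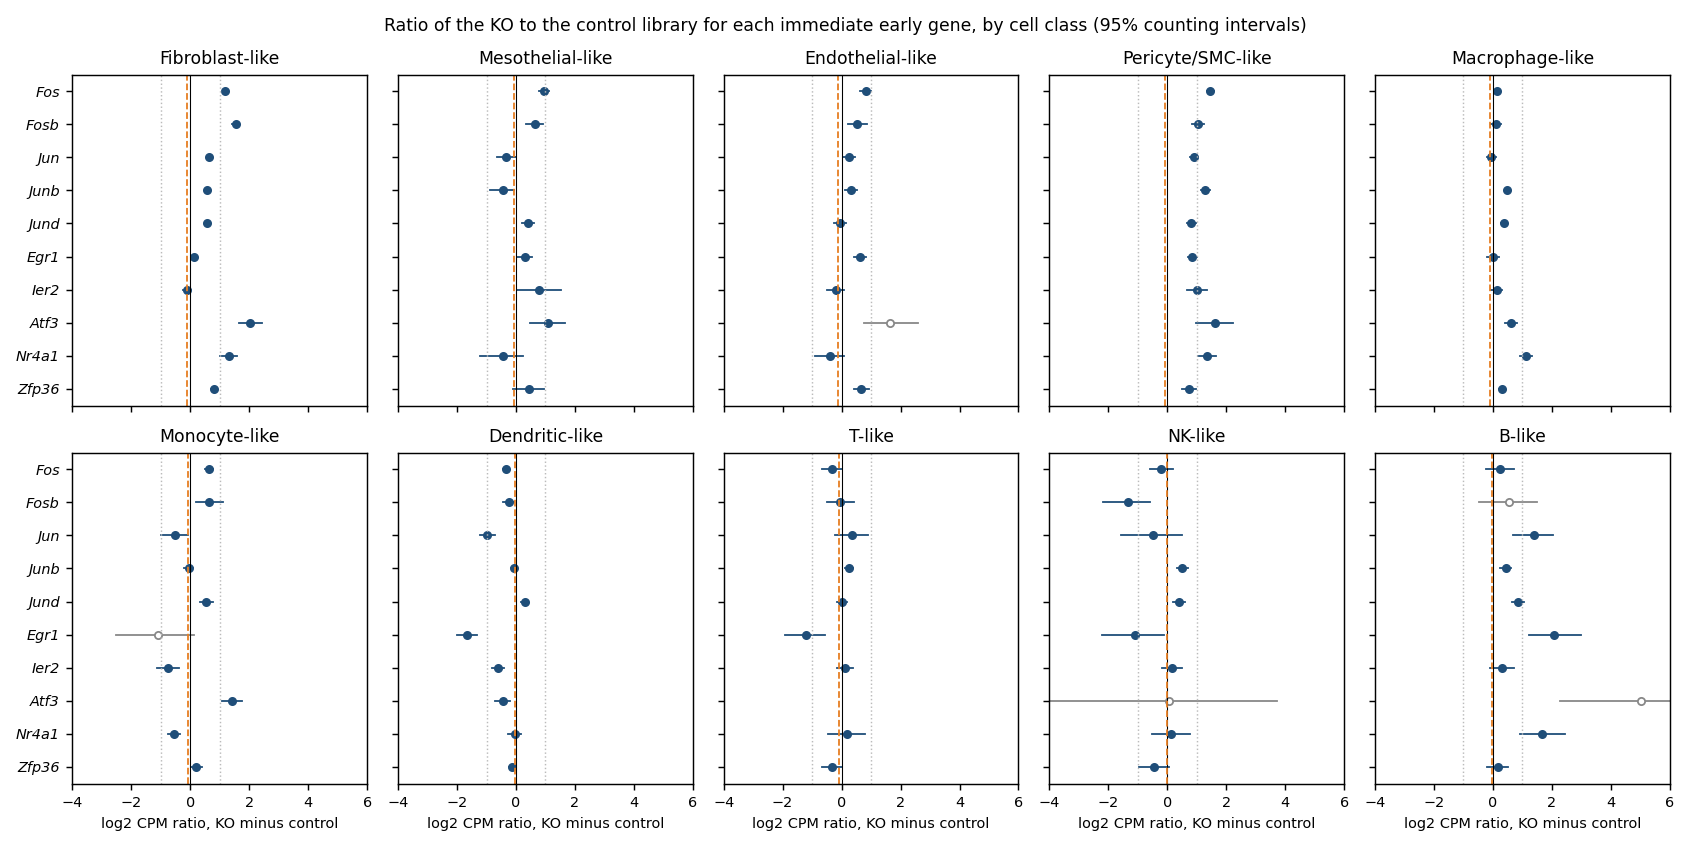
Log2 ratio of KO to control CPM for each gene and class, with 95% intervals of counting error clipped at the axis limits, the 2-fold limits dotted and the median of all tested genes dashed. Open grey points have under 50 UMIs over both libraries; points lie to the right of 0 for 10 of 10 genes in pericyte and smooth muscle-like cells and for 1 of 10 in dendritic cell-like cells.

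Fos (chr12:85473890-85477273, + strand, by GENCODE vM21 on GRCm38, as for the genes below) encodes a factor that binds DNA paired with a Jun protein. Its control level was highest in myeloid classes: 1411 CPM in monocyte-like, 1303 CPM in macrophage-like and 1215 CPM in dendritic cell-like cells. Stromal and vascular classes held 548 CPM (lymphatic endothelial-like) to 752 CPM (mesothelial-like), with 577 CPM in fibroblast-like cells, and lymphocytes held 197 to 250 CPM. In the KO library Fos was 1302 CPM in fibroblast-like cells, a log2 ratio of 1.17 (1.12 to 1.23). In pericyte and smooth muscle-like cells it went from 744 CPM in the control to 2040 CPM in the KO library, a log2 ratio of 1.46 (1.34 to 1.57). Among the 10 classes compared these had the widest gaps for Fos. In lymphatic endothelial-like cells, with 12 KO cells too few to be compared, Fos was 548 CPM in the control and 1987 CPM in the KO library, on 190 and 182 UMIs. Macrophage-like cells as a whole had 1431 CPM in the KO library (log2 ratio 0.14). Split by mitochondrial UMIs, their log2 ratio was -0.14 (-0.24 to -0.05) at or under 5% and 0.78 (0.65 to 0.91) above. Dendritic cell-like cells were lower, at 966 CPM (log2 ratio -0.33). T cell-like cells had 203 CPM in the control and 162 CPM in the KO library, a log2 ratio of -0.33. The intervals of these levels overlapped, while the interval of the ratio itself lay below 0. Other settings gave log2 ratios from -2.08 to 0.26.

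Fosb (chr7:19302696-19310051, - strand), a Fos family member that likewise pairs with Jun proteins, was lowest in control fibroblast-like cells among the stromal classes, at 129 CPM. The KO fibroblast-like cells held 373 CPM, a log2 ratio of 1.54 (1.42 to 1.65). Pericyte and smooth muscle-like cells held 334 CPM in the control and 690 CPM in the KO library, a log2 ratio of 1.05 (0.85 to 1.24). In NK cell-like cells Fosb lay the other way, with 127 UMIs (123 CPM) in the control and 16 UMIs (49.0 CPM) in the KO library, a log2 ratio of -1.33 (-2.18 to -0.58). Macrophage-like and T cell-like cells had log2 ratios of 0.11 and -0.04, with intervals that included 0.

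Jun (chr4:95049034-95052222, - strand, 1 exon), the usual partner of Fos in AP-1, followed another class pattern than Fos. Its control level was highest in fibroblast-like cells at 824 CPM, then 712 CPM in pericyte and smooth muscle-like and 706 CPM in endothelial-like cells, which overlapped. It was 391 CPM in macrophage-like cells and 46.6 to 62.4 CPM in the lymphocytes, so that the highest control class was 17.7 times the lowest. KO fibroblast-like cells held 1286 CPM, a log2 ratio of 0.64, and pericyte and smooth muscle-like cells 1333 CPM, a log2 ratio of 0.90. Neither reached 2-fold. In dendritic cell-like cells Jun went from 263 to 135 CPM, a log2 ratio of -0.97 (-1.24 to -0.71). In B cell-like cells it went from 40 UMIs (62.4 CPM) to 38 UMIs (162 CPM), a log2 ratio of 1.38 (0.70 to 2.06).

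Junb (chr8:84974484-84978718, - strand), a Jun family member that can restrain Jun at shared sites, was highest in immune classes. Control levels ran from 1476 CPM in monocyte-like and 1235 CPM in dendritic cell-like cells to 752 CPM in NK cell-like cells, above the 378 CPM of fibroblast-like and 263 CPM of mesothelial-like cells. In pericyte and smooth muscle-like cells it went from 500 to 1221 CPM, a log2 ratio of 1.29 (1.14 to 1.43). In macrophage-like cells it went from 1139 to 1578 CPM, a log2 ratio of 0.47 (0.39 to 0.55), while monocyte-like and dendritic cell-like cells had ratios of -0.06 and -0.07. Mesothelial-like cells held 370 UMIs in the control and 57 UMIs in the KO library, a log2 ratio of -0.46 (-0.89 to -0.05).

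Jund (chr8:70698949-70700616, + strand, 1 exon), the Jun family member that is usually present in resting cells, had the narrowest range over classes of the 10 genes. Its highest control class was 1.75 times its lowest, from 1004 CPM in fibroblast-like to 575 CPM in pericyte and smooth muscle-like cells. In the KO library it was 1470 CPM in fibroblast-like cells, a log2 ratio of 0.55 (0.50 to 0.60), and 1357 CPM in B cell-like cells, a log2 ratio of 0.86 (0.65 to 1.07). T cell-like cells had 645 and 646 CPM. Dendritic cell-like cells, in which the other 9 genes had log2 ratios below 0, had a Jund log2 ratio of 0.30 (0.18 to 0.41).

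Egr1, a zinc finger factor induced through serum response factor, was highest in stromal and vascular classes: 590 CPM in fibroblast-like, 552 CPM in pericyte and smooth muscle-like and 512 CPM in endothelial-like control cells, against 31.2 to 78.9 CPM in lymphocytes. It barely differed in fibroblast-like cells, where the KO level was 649 CPM and the log2 ratio 0.14 (0.06 to 0.21). The same cells had a Fos log2 ratio of 1.17, so the 2 genes parted there. In dendritic cell-like cells Egr1 went from 842 UMIs (264 CPM) to 86 UMIs (83.9 CPM), a log2 ratio of -1.65 (-1.99 to -1.33). T cell-like cells went from 92 to 25 UMIs, a log2 ratio of -1.22 (-1.92 to -0.57), and NK cell-like cells from 67 to 10 UMIs, a log2 ratio of -1.09 (-2.21 to -0.12). B cell-like cells lay the other way, with 20 UMIs (31.2 CPM) in the control and 31 UMIs (132 CPM) in the KO library, a log2 ratio of 2.08 (1.23 to 2.97). These 31 UMIs came from 7 of 38 cells.

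Nr4a1 (chr15:101254269-101274795, + strand), an orphan nuclear receptor needed by patrolling monocytes and induced by antigen receptors, was highest in monocyte-like cells. They held 1254 CPM in the control, followed by dendritic cell-like cells with 237 CPM, and fibroblast-like cells had 25.2 CPM. In monocyte-like cells it was lower in the KO library, at 855 CPM, a log2 ratio of -0.55 (-0.75 to -0.36). In macrophage-like cells it was higher, 116 CPM in the control and 255 CPM in the KO library, a log2 ratio of 1.14 (0.94 to 1.34), and 0.89 within macrophage-like cluster 1 alone, where it was no longer past 2-fold. Fibroblast-like cells went from 25.2 to 62.2 CPM, a log2 ratio of 1.30 (1.02 to 1.58), pericyte and smooth muscle-like cells had 1.35 (1.04 to 1.66) and B cell-like cells 1.68 (0.92 to 2.45). The last rests on 29 control and 34 KO UMIs.

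Ier2 (chr8:84661331-84662852, - strand, 1 exon), a small nuclear early response protein, did not follow Fos in fibroblast-like cells. There it was 184 CPM in the control and 169 CPM in the KO library, a log2 ratio of -0.12 (-0.27 to 0.02), the only one of the 10 genes below 0 there. Mesothelial-like cells had 60 control and 22 KO UMIs, a log2 ratio of 0.79 (0.02 to 1.52). It was 395 CPM in the control and 235 CPM in the KO library in monocyte-like cells (log2 ratio -0.75), and 382 and 252 CPM in dendritic cell-like cells (log2 ratio -0.60). In pericyte and smooth muscle-like cells it went from 107 to 217 CPM, a log2 ratio of 1.02 (0.67 to 1.36). The sign of this ratio did not hold: it was -0.31 among kept cells of at most 5% mitochondrial UMIs, with 11 KO cells, and -0.38 with wider limits of 200 genes and 20% mitochondrial UMIs, and the cause was not tested.

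Atf3 (chr1:191170296-191218039, - strand) is a stress-induced member of the ATF family that can repress inflammatory genes. Its control level was 200 CPM in dendritic cell-like, 182 CPM in monocyte-like and 145 CPM in macrophage-like cells, and 10.2 CPM in fibroblast-like cells. KO fibroblast-like cells held 125 UMIs (41.6 CPM) against 98 UMIs in 782 control cells, a log2 ratio of 2.03 (1.64 to 2.43). Monocyte-like cells went from 182 to 486 CPM, a log2 ratio of 1.42 (1.08 to 1.76), and pericyte and smooth muscle-like cells from 62 to 36 UMIs, a log2 ratio of 1.62 (0.99 to 2.24). Dendritic cell-like cells were lower, with a log2 ratio of -0.45 (-0.72 to -0.19). In T cell-like cells Atf3 had 10 UMIs in the control and 0 UMIs in the KO library, and in B cell-like cells 1 UMI and 12 UMIs, the latter in 2 cells. Both were below the 50 UMIs needed for a call.

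Zfp36 (chr7:28376784-28380253, - strand), the mRNA decay factor of the group, was highest in myeloid classes: 954 CPM in monocyte-like, 867 CPM in dendritic cell-like and 832 CPM in macrophage-like control cells, against 204 CPM in fibroblast-like cells. The intervals of monocyte-like and dendritic cell-like cells overlapped, and so did those of dendritic cell-like and macrophage-like cells. In fibroblast-like cells it was 355 CPM in the KO library, a log2 ratio of 0.80 (0.69 to 0.90). Pericyte and smooth muscle-like cells had 0.74 (0.51 to 0.97) and macrophage-like cells 0.31 (0.22 to 0.40). Dendritic cell-like cells were slightly lower, with a log2 ratio of -0.14 (-0.25 to -0.02), and the 3 lymphocyte classes had intervals that included 0.

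Counted against the 2-fold limit, 6 of 10 genes were higher in the KO library in pericyte and smooth muscle-like cells and 0 lower, where 2.12% and 6.33% of tested genes were. In fibroblast-like cells the counts were 4 and 0 of 10, with 1.16% and 1.7% of tested genes. In mesothelial-like cells they were 1 and 0 of 10 (1.26% and 4.22%), in endothelial-like cells 0 and 0 of 9 (1.46% and 3.49%), in macrophage-like cells 1 and 0 of 10 (1.54% and 5.12%) and in monocyte-like cells 1 and 0 of 9 (3.4% and 5.54%). In dendritic cell-like cells they were 0 and 1 of 10 (1.01% and 3.05%), in T cell-like cells 0 and 1 of 9 (0.982% and 2.02%), in NK cell-like cells 0 and 2 of 9 (0.764% and 2.85%) and in B cell-like cells 3 and 0 of 8 (1.9% and 2.99%). Because this contrast chose the genes, the counts say nothing about the group beyond its choice. Over the tested genes of a class, the median log2 ratio of the 10 genes was highest in pericyte and smooth muscle-like cells at 1.03 and lowest in dendritic cell-like cells at -0.29.

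Clusters within a class did not share the gap evenly. Pericyte and smooth muscle-like cells were made of 3 clusters, and the largest in the control (cluster 12, 126 of 298 cells) had 7 of the 41 KO cells, while 20 of the 41 KO cells were in cluster 17. The log2 ratio of the sum was 0.11 (-0.16 to 0.36) in cluster 12, 0.56 in cluster 16 and 1.19 in cluster 17, so the gap was widest in the cluster that held most KO cells. The class name was less well supported in cluster 17. Its mean marker z-score for the class was 1.42, against 2.73 in cluster 12 and 2.85 in cluster 16. None of the class markers was among its 10 top genes, though all 8 were detected. Macrophage-like cells lay in clusters 1 and 3, which held 335 and 312 control cells but 78 and 17 KO cells. The sum had log2 ratios of 0.30 and 0.24 there, while Atf3 went from 0.62 over the class to 0.28 within cluster 1. Among fibroblast-like cells, cluster 2 had 0.97 (0.92 to 1.01) and cluster 0 had 0.53 (0.50 to 0.56). Fos in cluster 2 went from 497 to 1652 CPM, a log2 ratio of 1.73, and Atf3 from 22 to 67 UMIs, a log2 ratio of 3.43 (2.71 to 4.19). The lower Egr1 of dendritic cell-like cells lay in cluster 7, at 342 and 105 CPM (log2 ratio -1.71), while cluster 18 had 77.3 and 58.6 CPM, with an interval that included 0. The lower Egr1 of T cell-like cells lay in cluster 19, where 66 control and 8 KO UMIs gave a log2 ratio of -2.07 (-3.34 to -1.01), while cluster 6 had 26 and 17 UMIs and a ratio of -0.05. An unnamed cluster had the highest sum of any cluster, 10421 CPM in 210 control and 16813 CPM in 90 KO cells. Its top genes mixed the mast cell protease genes Tpsb2, Mcpt4 and Cpa3 with Il1rl1, Areg and Csf2. Its mean marker z-score was highest for group 2 innate lymphoid cells (1.75), against 0.46 for mast cells and basophils. Other unnamed clusters also had positive log2 ratios of the sum, 0.96 in cluster 9, 0.88 in cluster 15 and 1.07 in cluster 21.

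**Figure D3:**
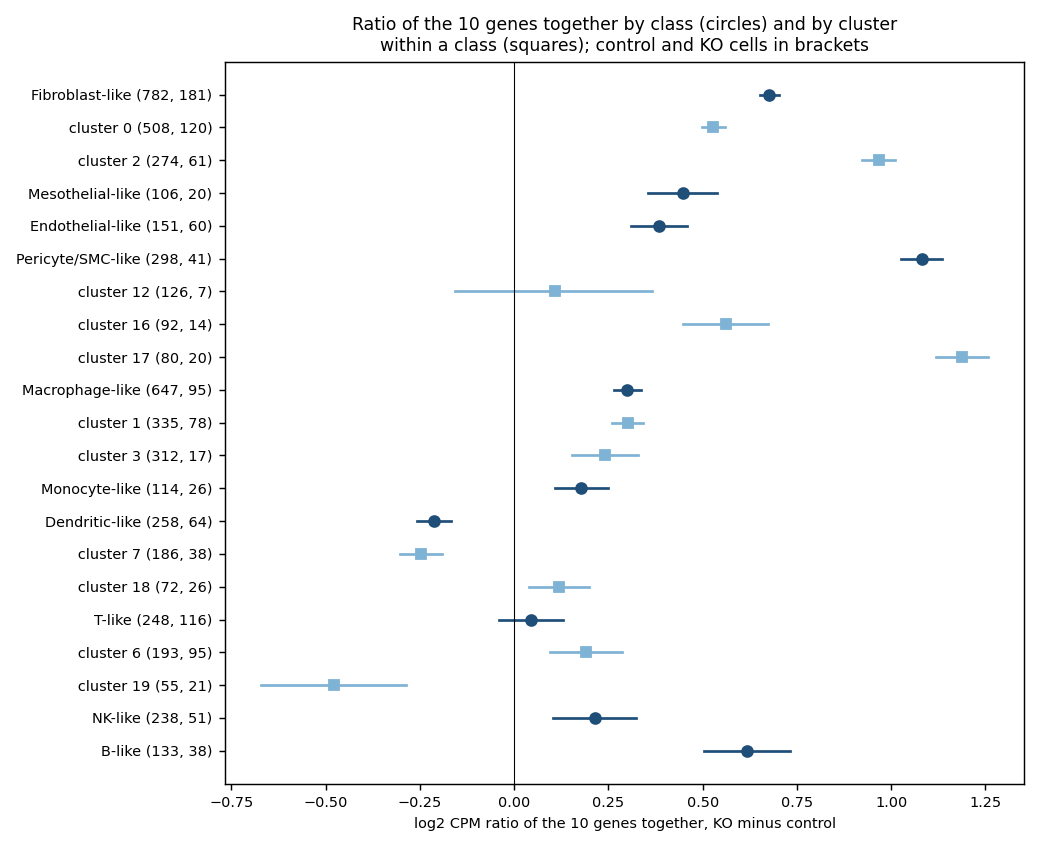
Log2 ratio of KO to control for the sum of the 10 genes by class (circles) and by cluster within a class (squares), with 95% intervals of counting error and the control and KO cell numbers in brackets. Fibroblast-like clusters lie at 0.53 and 0.97, pericyte and smooth muscle-like clusters from 0.11 to 1.19, and the 2 dendritic cell-like clusters on either side of 0.

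Per cell, the median share of UMIs from the 10 genes was 0.323% in control and 0.552% in KO fibroblast-like cells, and 0.278% and 0.489% in pericyte and smooth muscle-like cells. In macrophage-like cells it was 0.457% and 0.555%, and in B cell-like cells 0.281% and 0.410%. It was lower in the KO library in dendritic cell-like cells (0.499% and 0.469%) and in mesothelial-like cells (0.224% and 0.198%, over 20 KO cells), the latter opposite in sign to their summed ratio. The fibroblast-like gap was thus present in the middle of the distribution. The 10% of fibroblast-like cells with most Fos held 42.7% of the control and 31.8% of the KO UMIs of this gene. With each cell thinned to 2000 UMIs, Fos was detected in 44.9% of 771 control (41.3 to 48.5) and 67.0% of 179 KO fibroblast-like cells (59.6 to 73.9), against 73.1% and 85.6% at full depth. In T cell-like cells, at lower depth, the thinned shares with Fos were 25.3% (control) and 29.9% (KO). Egr1 was found in 46.7% of thinned control and 46.9% of thinned KO fibroblast-like cells, and in 24.5% (19.3 to 30.3) and 8.06% (2.67 to 17.8) of dendritic cell-like cells. Nr4a1 was found in 84.7% (76.6 to 90.8) of 111 thinned control and 61.5% (40.6 to 79.8) of 26 thinned KO monocyte-like cells, with intervals that overlapped. Barcodes with under 500 genes and at most 10% mitochondrial UMIs (1057 control, 514 KO), whose UMIs were 82.5% and 86.4% haemoglobin, carried 333 and 338 CPM of the 10 genes together at a median of 2443 and 2946.5 UMIs, below every class. Those with under 500 genes and more than 10% mitochondrial UMIs (1881 control, 824 KO) carried 1508 and 1661 CPM.

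**Figure D4:**
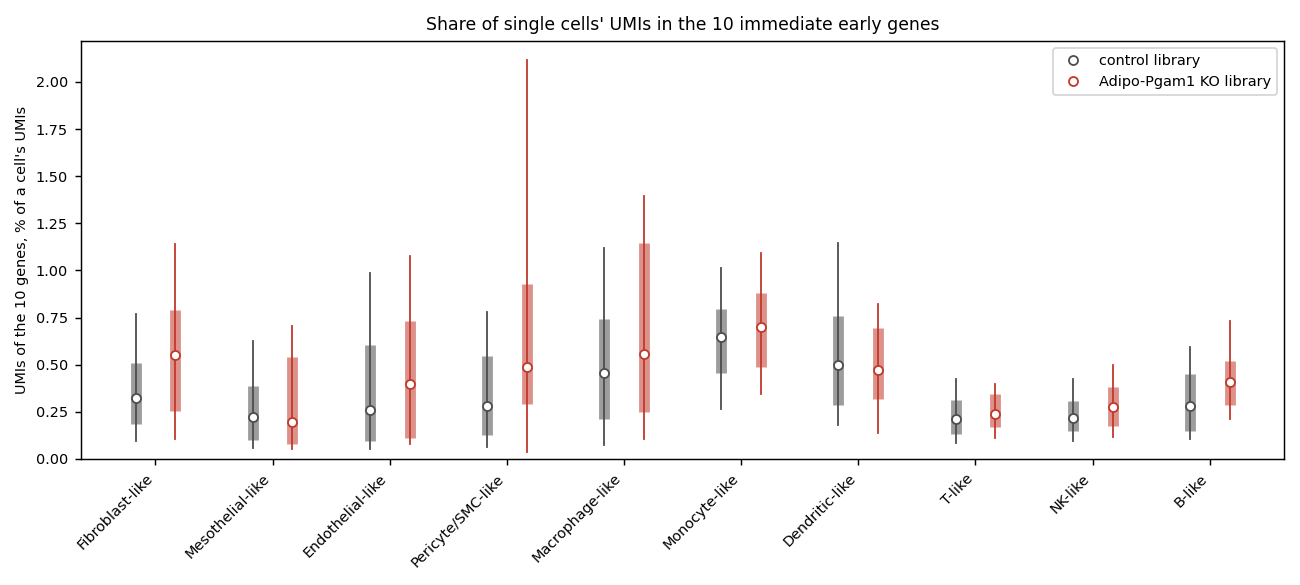
Share of each cell's UMIs that came from the 10 genes together, in percent, by class and library; points are medians over cells, bars run from the 25th to the 75th and lines from the 10th to the 90th percentile. The KO median lies above the control median in fibroblast-like cells (0.552% against 0.323%) and below it in dendritic cell-like cells (0.469% against 0.499%).

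The genes varied together over cells more in stromal than in lymphoid classes. The median Pearson r over the 45 gene pairs, on log-normalised values, was 0.33 over 782 control fibroblast-like cells and 0.44 over 181 KO cells, and 0.39 over 647 control macrophage-like cells. In lymphocytes it was between 0.04 and 0.15. Counts were sparse there, and the part of this in the low values was not tested. Monocyte-like cells, the class with the highest control sum, were also low, at 0.11 over 114 control and 0.15 over 26 KO cells. Fos and Egr1 had r = 0.52 in control fibroblast-like cells and r = 0.60 in KO cells. In monocyte-like cells of the KO library Nr4a1 ran against Fos (r = -0.37, 26 cells). These values share libraries and depth and are descriptions.

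Among 9020 other genes in control fibroblast-like cells, Dusp1, a phosphatase that switches off the kinases upstream, was most like the sum of the 10 genes (r = 0.44 over 782 cells, and 0.43 over 181 KO cells). It was followed by Btg2 (0.30), Rhob (0.29), Klf6 (0.29), Socs3 (0.28), Gm26532 (0.23), Atf4 (0.21), Klf2 (0.21), Sgk1 (0.20) and Klf4 (0.20). In KO cells the order differed: Btg2 (0.53) and Socs3 (0.51) were ahead of Dusp1, and Rhob, Atf4 and Sgk1 ranked 642, 917 and 1540. The sum itself had r = 0.14 with depth in these cells.

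The lists of related genes were read the same way, as counts past 2-fold beside the shares of all tested genes given above. Of 13 early feedback inhibitors tested in fibroblast-like cells 2 were higher and 0 lower in the KO library, Socs3 from 52.0 to 174 CPM (log2 ratio 1.74) and Btg2 from 53.1 to 147 CPM (1.47). In pericyte and smooth muscle-like cells 3 of 12 were higher, with Socs3 at 2.46 (2.14 to 2.79), Btg2 at 1.47 and Ppp1r15a at 1.12. There, of 9 other EGR, NR4A and KLF genes tested, 3 were higher (Ier3 1.71, Klf2 1.58 and Klf4 1.56) and 1 was lower (Klf10 -1.41).

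In macrophage-like cells 7 of 9 tested transcripts bound by tristetraprolin, which destabilises them, were at least 2-fold higher and 0 lower in the KO library. Within cluster 1, which held 335 of 647 control and 78 of 95 KO cells, 6 of 9 were higher and 0 lower. Il6, a cytokine of acute inflammation, went from 32 to 48 UMIs (5.12 to 43.3 CPM), a log2 ratio of 3.08. Ccl3 had 2.63, Tnf 2.31 and Ccl4 2.13, while Zfp36 itself had 0.31. Nr4a3, the relative of Nr4a1, had 3.58 (2.85 to 4.35), and the heat shock gene Hspa1a 2.86. In dendritic cell-like cells 3 of 10 heat shock chaperones tested were at least 2-fold higher and 0 lower, Hspa1b (3.93), Hspa1a (2.53) and Hsph1 (1.40). Of 5 tristetraprolin-bound transcripts tested there, 2 were higher, Il1b (1.36) and Ccl4 (1.32), and 2 were lower, Tnf (-1.75) and Cxcl2, which went from 51 to 2 UMIs (-3.03, with an interval of -6.12 to -1.11). In monocyte-like cells Ccl2, a monocyte attractant, went from 23 to 185 UMIs, a log2 ratio of 4.20 (3.57 to 4.89), and with Cxcl2 (2.92) made up the 2 higher of 3 tristetraprolin-bound transcripts tested. Ier3 (3.54) was the 1 higher of 6 other EGR, NR4A and KLF genes. Of 14 early feedback inhibitors 0 were higher and 2 were lower there, Dusp2 (-1.89) and Socs3 (-1.20), the latter opposite in sign to fibroblast-like cells. Of kinases and factors upstream of the early genes, 0 of 12 tested in fibroblast-like cells passed 2-fold in either direction, and 1 of 11 was lower in pericyte and smooth muscle-like cells (Elk3, log2 ratio -1.24). In B cell-like cells 4 of 7 heat shock chaperones tested were higher, led by Hsph1 at 2.41 (1.58 to 3.29). Among serum response and cytoskeletal targets 0 of 9 passed 2-fold in fibroblast-like cells, and Rhob, a small GTPase, was lower in pericyte and smooth muscle-like cells at -1.15 (-1.41 to -0.89). In macrophage-like cells 2 of 9 other AP-1 family genes were higher, Jdp2 at 1.99 and Fosl2 at 1.08. Gadd45b, a growth arrest gene of the stress response list, was 1 of 4 tested there and had 1.18. The reference transcripts had 0 genes past 2-fold in each of the 10 classes.

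Depth and the mitochondrial share were set beside these ratios. In fibroblast-like cells of under 8000 UMIs (115 control and 24 KO cells) the log2 ratio of the sum was 0.03 (-0.11 to 0.17), and in those of at least 8000 UMIs (667 and 157 cells) it was 0.70 (0.67 to 0.72). In T cell-like cells it was 0.25 under 8000 UMIs and -0.69 (-0.89 to -0.49) at or above it, where 12 control and 24 KO cells were left. In pericyte and smooth muscle-like cells it was 0.89 and 1.02, and in macrophage-like cells 0.58 and 0.25. Over the mitochondrial share, the sum in control barcodes went from 5624 CPM at 0 to 2.5% to 3723 CPM at 7.5 to 10%, just inside the limit, and 3263 CPM at 10 to 20%, just outside it. In the KO library the same bins held 6538, 6040 and 4677 CPM, so the KO level was above the control level in each of them. By gene, control Fos was 1083 CPM at 0 to 2.5% and 612 CPM at 7.5 to 10%, while KO Fos was 1200.4 and 1174 CPM. Control Atf3 was 149 CPM and 33.1 CPM in the same bins, and KO Atf3 73.9 and 56.6 CPM, so that Atf3 was lower in the KO library at the low mitochondrial share and higher at the high one. These bins pool the classes, whose shares of cells differed between the libraries, and the part of this was not tested. In macrophage-like cells the sum had a log2 ratio of 0.21 at or under 5% mitochondrial UMIs and 0.54 above. In B cell-like cells the summed level of 8 dendritic cell markers was 287 CPM in the control and 687 CPM in the KO library. Of these markers 7 were at 0 UMIs in the KO library, Xcr1, Clec9a and Flt3 among them, and Ccr7, which B cells also carry, made up the whole sum.

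**Figure D5:**
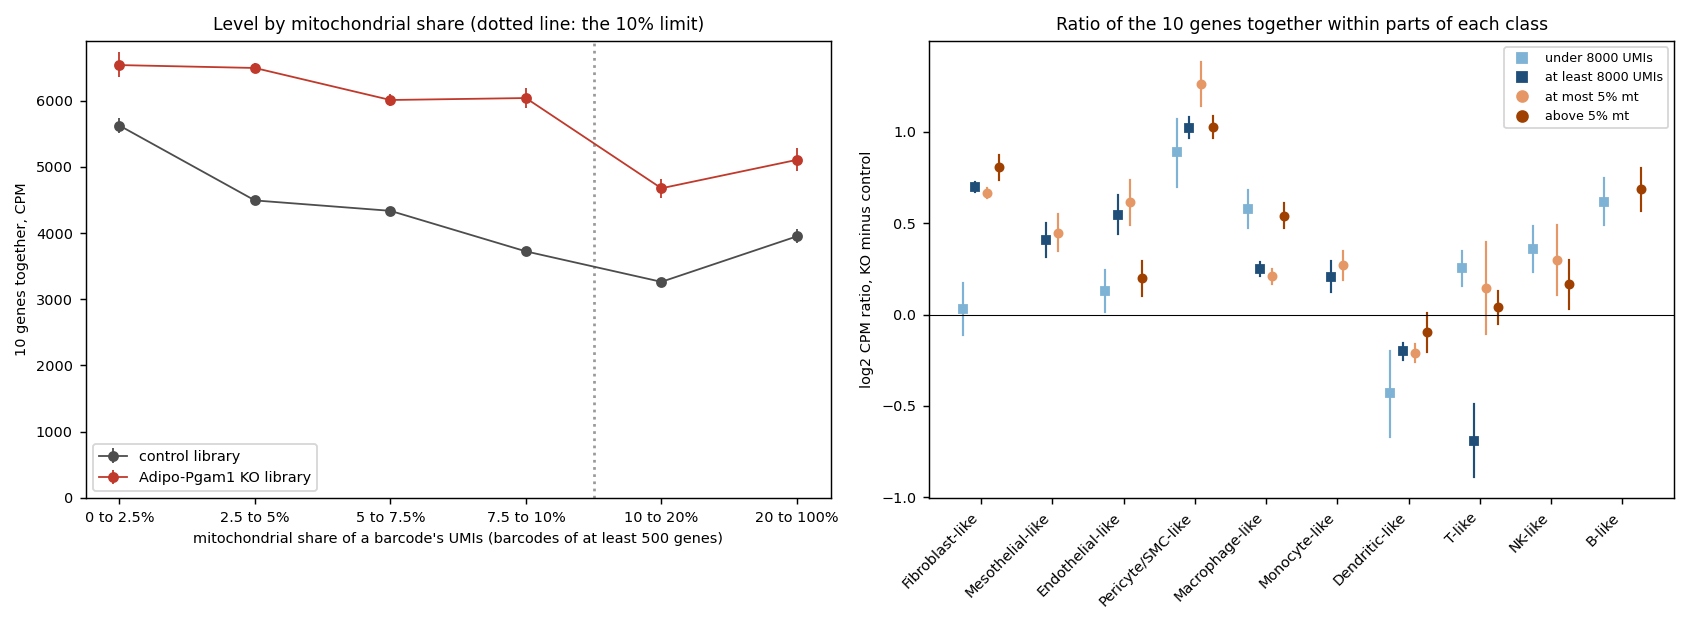
Sum of the 10 genes in CPM over bins of the mitochondrial share (left), and its log2 ratio of KO to control within classes split at 8000 UMIs or at 5% mitochondrial UMIs (right), with 95% intervals of counting error. The KO level is above the control level in every bin, and the fibroblast-like ratio is 0.03 under 8000 UMIs and 0.70 at or above.

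Of the 10 genes, 4 overlap a gene on the other strand that was also counted, and the sources used here do not state how strand was used in counting. Junos, opposite Jun, had 29 control and 11 KO UMIs over the kept cells, Gm11175, opposite Jund, 2 and 1 UMIs, and RP23-466P2.3, opposite Zfp36, 0 in both. Prdx2, which overlaps Junb, was at 137 CPM in both libraries. Where the counting could not separate the strands, the values of Junb and Prdx2 cannot be told apart.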

How the data were processed

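Single-cell RNA-seq counts of 2 libraries (1 control, 1 Adipo-Pgam1 KO) were analysed. Per the submitters' processing notes the authors used Cell Ranger 3.0.1 on mm10, and Seurat 3.1.5 in R 4.0.1; the deposited values are UMI counts per gene and barcode, not normalized. UMIs collapse PCR copies, so each count stands for a captured molecule.

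The cell limits were 500 genes (minimum) and a mitochondrial share of 10% (maximum). The barcodes with the highest doublet scores were removed, at 0.8% per 1000 barcodes. Both libraries were clustered together with scanpy 1.11.5 and leidenalg 0.10.2 (2000 variable genes, 30 components, resolution 0.5), leaving out 112 genes, among them the 10 early genes and the related lists. Clusters were named from marker lists, and a class was compared when both libraries had at least 20 cells. UMIs were summed per class and library and divided by the total. Log2 ratios carry exact conditional binomial intervals, and a call means at least 2-fold and 50 UMIs over both libraries, with counts under 3 set to 3. All 10 genes were named in the text, with at most 4 of each list in a class by size among those past 2-fold. The ratio script was tested on simulated data. Promoter sequences were RefSeq's, and gene positions GENCODE vM21. The genes, lists and markers were chosen with earlier results of these data known. Alternatives changed the cell limits, doublet step, clustering, scaling, weighting, depth, count minimum and fold, and 3 were added after the data were seen. Software was Python 3.11.15, numpy 2.4.6, scipy 1.17.1 and, for TMM factors, edgeR 4.0.16.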

Additional observations from a re-analysis of the deposited data

Results flagged for a closer look

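Fosb and Egr1 differed between the libraries past 2-fold in opposite directions in different classes, and the difference between classes was not tested, with 1 library per genotype. Fosb had a log2 ratio of KO to control of 1.54 in fibroblast-like cells and 1.05 in pericyte and smooth muscle-like cells, but -1.33 in NK cell-like cells, where the KO value rests on 16 UMIs. Egr1 had 2.08 in B cell-like cells, on 20 control and 31 KO UMIs, and -1.65 in dendritic cell-like, -1.22 in T cell-like and -1.09 in NK cell-like cells. In KO B cell-like cells the 10% of cells with most Egr1 held 90.3% of its UMIs. The NK cell-like value was -0.12 without the 5% of cells with most early gene UMIs. The T cell-like value was -0.05 within 1 cluster.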

How the results depend on the processing

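The 10 genes in 10 classes gave 100 pairs, of which 94 had enough UMIs; 16 passed 2-fold upward and 4 downward in the KO library. Of these 20 pairs, 19 kept their sign under every alternative that gave them a value (16 planned and 3 added after the data were seen). The exception was Ier2 in pericyte and smooth muscle-like cells, at -0.38 with limits of 200 genes and 20% mitochondrial UMIs and -0.31 among kept cells of at most 5%. The cause was not tested. Kept cells of under 8000 UMIs were not among these alternatives, and there Fosb in fibroblast-like cells had -0.67 (-1.58 to 0.14). With limits of 1000 genes and 5% there were 10 higher and 2 lower pairs and 5 classes with a higher sum (of 6 compared, since the others had too few cells; 9 of 10 in the reported analysis). Thinning to 2000 UMIs gave 10 higher pairs over 78 tested, a 1.5-fold limit 32 higher and 7 lower, and kept cells of at least 8000 UMIs 2 lower. The highest class over the lowest in the control (2.75) was 2.19 at 200 genes and 20%, 2.56 at 1000 genes and 5%, 2.32 without doublet removal, 2.36 at resolution 0.3, 2.33 with the libraries clustered separately and 2.99 without the 5% of cells with most early gene UMIs. In the KO library (3.31) it was 2.66 at 1000 genes and 5%, 5.37 with separate clustering, 2.93 for the mean of single cells' CPM and 2.99 without those 5% of cells. Monocyte-like cells could not be compared in 5 of the settings, the limits of 200 and of 1000 genes, no doublet removal, resolution 0.3 and separate clustering. TMM and median-of-ratios scaling moved a class by at most 0.11 on the log2 scale and left 16 and 4 pairs. The sum kept 1 sign in 9 of 10 classes and changed it in T cell-like cells, between -0.69 and 0.19. No paired analysis was possible because each genotype had 1 library. Depth limits Atf3 and Egr1 in lymphocytes, where the Egr1 calls rest on few UMIs and Atf3 had too few for a call. Replicate spread is unknown.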
